A study of Homo sapiens with 12 samples.

Results

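The genes described are 9 that carry the angiotensin II signal, or set membrane voltage and calcium, in aldosterone-producing cells of the adrenal cortex. They were taken by symbol from the 60662 genes of the expression table, as AGTR1, KCNK3, KCNK9, KCNJ5, CACNA1D, CACNA1H, ATP2B3, CLCN2 and VSNL1. All 9 were listed, and 8 of them were among the 16815 genes that passed a filter on low values (0.5 TPM or more in 4 or more samples). TPM is a length-corrected unit that scales every sample to the same total, so that levels of different genes can be compared. RNA-seq was done on NCI-H295R, a human adrenocortical carcinoma cell line, in 12 samples with 4 biological replicates per group. All cultures were confluent and went without serum for 12 h before treatment. The groups were VEH (0.1% DMSO), CJ28 (30 µM), a benzimidazolylurea inhibitor of cortisol synthesis, and MET (30 µM), metyrapone, an inhibitor of 11β-hydroxylase, each given for 24 h. All values come from 1 cell line, no group received angiotensin II or added potassium, and the comparisons ask how each compound changed mRNA levels in unstimulated cells. The table holds TPM and no read counts, and no counting error was attached to single TPM values.

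Aldosterone output is controlled by membrane voltage. Glomerulosa cells of the adrenal cortex rest at a strongly negative potential that is held by potassium channels, and angiotensin II or raised potassium depolarises them. Voltage-gated calcium channels then open, calcium enters, and calmodulin-dependent kinases and transcription factors raise the synthesis of aldosterone. Germline or somatic changes in KCNJ5, CACNA1D, CACNA1H, ATP2B3 and CLCN2 are known causes of aldosterone excess, which is why these channels and pumps are read together.

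In VEH, KCNK3, which encodes a two-pore potassium leak channel, had the highest level of the 9 genes, with a mean of 46.5 TPM, above 93.6% of all genes tested. AGTR1, the angiotensin II type 1 receptor, followed at 21.3 TPM, KCNJ5, a G protein-gated inward rectifier potassium channel, at 20.0 TPM, and CACNA1D, the pore of an L-type calcium channel, at 19.9 TPM. These 3 genes overlapped between samples, so their order is not fixed by the data. VSNL1, a calcium sensor protein, had 11.0 TPM and CLCN2, a voltage-gated chloride channel, 2.92 TPM. CACNA1H, the pore of a T-type calcium channel that opens at small depolarisations, and ATP2B3, a pump that moves calcium out of the cell, were at 1.45 and 1.39 TPM and also overlapped. KCNK9, a leak channel related to KCNK3, was listed at 0.23 TPM on average and did not pass the filter. In CJ28 the order of the means was different below KCNK3, with KCNJ5 at 15.3, CACNA1D at 13.1, AGTR1 at 13.0, CACNA1H at 4.54 and VSNL1 at 4.43 TPM. There CACNA1D overlapped with AGTR1, and CACNA1H with VSNL1, so the order inside these pairs is not fixed either.

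Promoter sequence in RefSeq (GRCh38.p14) was matched for 6 of the 9 genes. A stretch of 200 bases is shown for KCNJ5 and ATP2B3, which were both lower in CJ28. Each ends just before the gene start, taken as the earlier of the RefSeq start and the start in the deposited table. Both stretches are on the plus strand, at chr11:128891156-128891355 and chrX:153517442-153517641. Capitals mark GGGCGG (the GC box bound by SP factors) and TGACG (the core of the cAMP response element), each searched on both strands, with no match overlapping another.
KCNJ5: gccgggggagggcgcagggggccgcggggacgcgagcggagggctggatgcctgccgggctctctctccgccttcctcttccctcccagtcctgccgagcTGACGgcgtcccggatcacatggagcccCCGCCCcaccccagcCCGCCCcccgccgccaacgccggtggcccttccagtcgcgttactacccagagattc
ATP2B3: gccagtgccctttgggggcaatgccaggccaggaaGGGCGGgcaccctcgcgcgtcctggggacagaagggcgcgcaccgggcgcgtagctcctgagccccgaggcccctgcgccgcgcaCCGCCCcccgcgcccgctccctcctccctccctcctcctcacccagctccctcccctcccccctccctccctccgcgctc
GC content was 74.5% for KCNJ5 and 77.5% for ATP2B3. The GC box letters occurred 2 times in each stretch, and 40.1% of the 35116 RefSeq windows of this length hold them at least once. TGACG occurred 1 time, in KCNJ5, and in 18.4% of all windows. AGGTCA, the half-site of NR5A1 and related receptors, and GCGTG, the core of the dioxin response element, had no match in either stretch and are found in 9.83% and 28.2% of all windows.

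Most of these genes were lower in CJ28 than in VEH, and CACNA1H was higher. In the limma fit over all 16815 genes, 7 of the 8 genes tested had an adjusted p under 0.05, 6 lower (AGTR1, KCNK3, KCNJ5, CACNA1D, ATP2B3 and VSNL1) and 1 higher (CACNA1H). The background is high, since 57% of all genes tested differed between CJ28 and VEH, 37.1% lower and 19.9% higher, so the number of calls alone does not set these genes apart. The same 7 genes had no overlap between the groups, as did 50.3% of all genes, 32.7% with lower and 17.7% with higher values in CJ28. The median log2 fold change of the 8 genes was -0.65, against -0.13 for all genes tested. The latter shift moved to 0.014 when TPM was divided by median-of-ratios factors and to 0.077 when TPM was recomputed over nuclear protein-coding genes, and the share of lower genes among all calls moved from 65.1% to 47.4% and 41.2%. Each of the 7 genes was called in the same direction under both scalings. In the same CJ28 samples the summed TPM of 8 adrenocortical markers was 117 to 124, against 283 to 293 in VEH, with all 8 called lower. The part of this in the results was not tested, and in bulk RNA fewer cells of a type and less RNA per cell cannot be told apart. Summed TPM stayed at or below 0.11 for 4 endothelial, 1.20 for 5 fibroblast and 0.82 for 4 immune markers in every sample, and 5 chromaffin markers summed to 5.02 to 6.17 in CJ28 and 6.83 to 7.4 in VEH, with TH at 0.

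**Figure D1:**
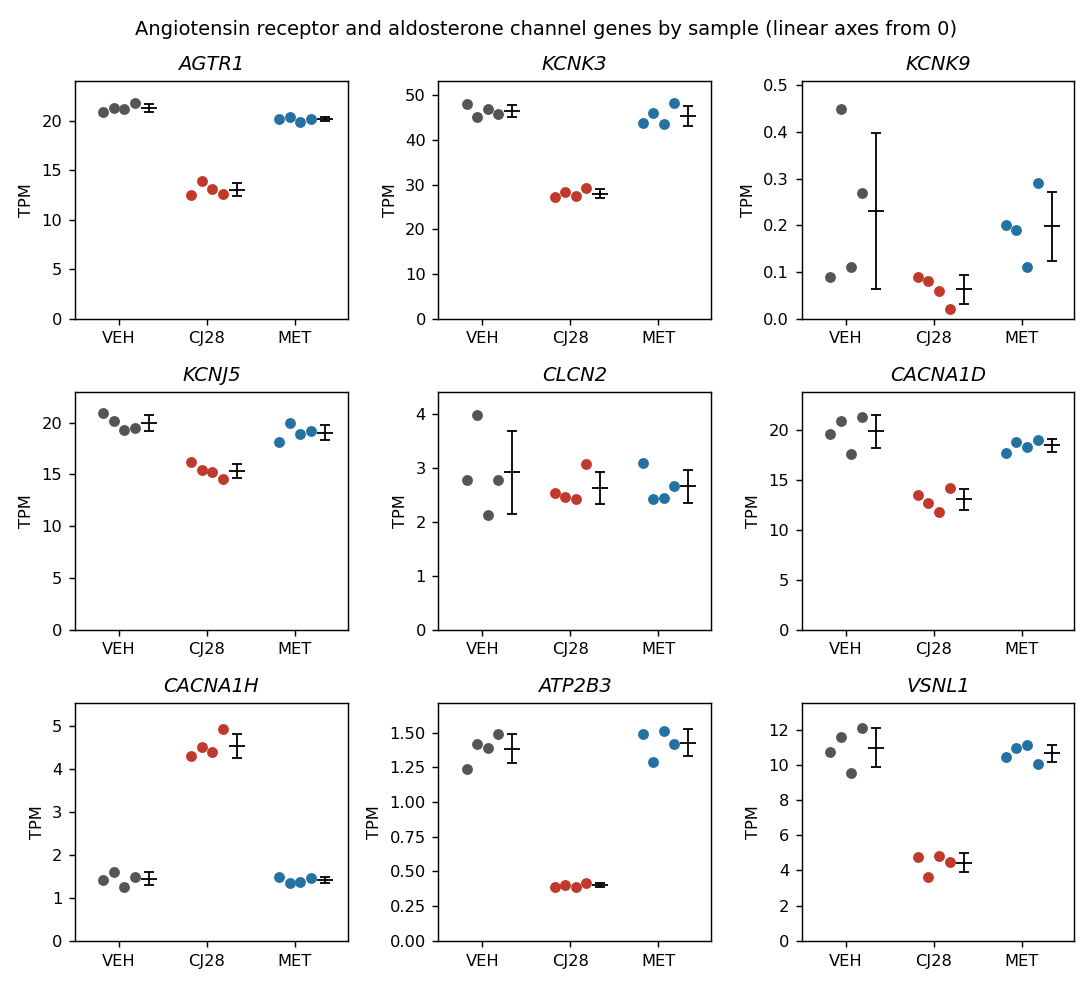
TPM of each of the 9 genes in every sample, with replicates 1 to 4 from left to right and the mean and SD (n = 4) as a black bar. The CJ28 samples lie below all VEH and MET samples for AGTR1, KCNK3, KCNJ5, CACNA1D, ATP2B3 and VSNL1 and above them for CACNA1H, while the groups overlap for CLCN2 and KCNK9 stays at 0.45 TPM or less.

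AGTR1 (ENSG00000144891.17, chromosome 3, 148697784 to 148743008 on GRCh38, plus strand) is the receptor through which angiotensin II acts on these cells. It had 20.87, 21.31, 21.23 and 21.76 TPM in VEH replicates 1 to 4, and 12.51, 13.88, 13.13 and 12.62 TPM in CJ28. The highest CJ28 sample was far below the lowest VEH sample, and the spread inside each group was small. The mean changed from 21.3 ± 0.366 to 13.0 ± 0.625 TPM (SD, n = 4), and the log2 fold change was -0.70 (standard error 0.038, limma adjusted p = 8.3e-09). AGTR1 thus fell by 38.8% in mean TPM.

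The leak channel KCNK3 (ENSG00000171303.7, chromosome 2, 26692690 to 26733420, plus strand), which holds the resting potential, fell to nearly the same degree. Its VEH samples had 48.09, 45.05, 47.05 and 45.93 TPM and its CJ28 samples 27.15, 28.32, 27.36 and 29.25 TPM. The groups did not overlap, with means of 46.5 ± 1.32 in VEH and 28.0 ± 0.965 TPM in CJ28. The log2 fold change was -0.73 (standard error 0.041, limma adjusted p = 1.2e-08). KCNJ5 (ENSG00000120457.12, chromosome 11, 128891356 to 128921163, plus strand), the channel most often altered in aldosterone-producing adenomas, fell less. It had 20.92, 20.16, 19.29 and 19.44 TPM in VEH against 16.16, 15.45, 15.23 and 14.54 TPM in CJ28. All CJ28 samples were below all VEH samples, but the gap between the groups was only a few TPM. The log2 fold change was -0.38 (standard error 0.044, limma adjusted p = 1.2e-05), and it was -0.23 with median-of-ratios scaling and -0.17 over nuclear protein-coding genes, past the threshold in both. KCNK9 (ENSG00000169427.8, chromosome 8, 139600838 to 139704109, minus strand), the other acid-sensitive leak channel, was listed at 0.09, 0.45, 0.11 and 0.27 TPM in VEH and at 0.09, 0.08, 0.06 and 0.02 TPM in CJ28. The groups touched at 0.09 TPM, and the difference in mean TPM did not pass the exact permutation test (two-sided, p = 0.0571, n = 4 per group). Without the filter on low values its log2 fold change was -0.91 (limma adjusted p = 0.0823), and over nuclear protein-coding genes, where it passed the filter, -1.25 (limma adjusted p = 0.0353).

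CLCN2 (ENSG00000114859.16, chromosome 3, 184346185 to 184361650, minus strand), whose opening lets chloride leave and depolarises the cell, was the only tested gene of the group without a call. VEH samples had 2.78, 3.99, 2.13 and 2.78 TPM and CJ28 samples 2.54, 2.47, 2.43 and 3.08 TPM. The VEH samples spanned the whole range of CJ28. The log2 fold change was -0.12 with a 95% interval from -0.46 to 0.22 (limma adjusted p = 0.546), so changes of this size in either direction could not be told from none, and the sign turned under both scalings (0.030 and 0.083). Exons of CLCN2 overlap FAM131A on the other strand, at 2.82 TPM in VEH and 3.29 TPM in CJ28. The libraries were stranded, but the strand setting of the quantification is not given in the sources used here.

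The calcium channel genes moved in opposite directions. CACNA1D (ENSG00000157388.19, chromosome 3, 53328963 to 53813733, plus strand), the L-type pore that opens at relatively negative voltages, had 19.65, 20.95, 17.59 and 21.33 TPM in VEH and 13.54, 12.75, 11.82 and 14.24 TPM in CJ28. The groups did not overlap, and the log2 fold change was -0.60 (standard error 0.068, limma adjusted p = 8.9e-06), or -0.40 over nuclear protein-coding genes. On the other strand CACNA1D overlaps CHDH (0.44 TPM in VEH, 0.175 in CJ28) and DCP1A (12.7 and 14.8 TPM). CHDH meets an exon of the reference transcript of CACNA1D (MANE Select) and DCP1A does not, while exons of its other transcripts were not compared. Reads of CHDH and DCP1A could be shared with CACNA1D if strand was not used. CACNA1H (ENSG00000196557.13, chromosome 16, 1153106 to 1221771, plus strand) had 1.43, 1.61, 1.25 and 1.5 TPM in VEH and 4.30, 4.51, 4.40 and 4.94 TPM in CJ28. Every CJ28 sample was above all VEH samples, and the mean was 3.13-fold higher. Its log2 fold change was 1.59 (standard error 0.085, limma adjusted p = 8.1e-09), and only 129 of the 16815 genes tested had a larger one. Over the scalings, pseudocounts and filters tried it ranged from 1.18 to 1.84. Genes that overlap CACNA1H on the other strand were at or below 0.11 TPM on average in each group. Those whose span meets an exon of its reference transcript were at or below 0.065 TPM.

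**Figure D2:**
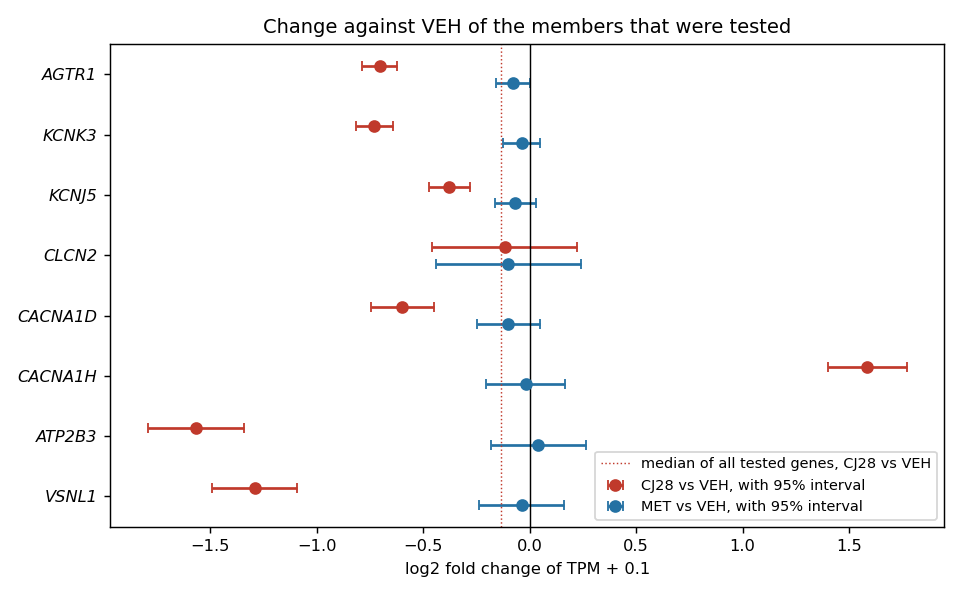
Log2 fold change of TPM + 0.1 against VEH for the 8 genes tested, with the 95% interval from limma, for CJ28 (red) and MET (blue). The dotted line is the median of all genes tested in CJ28 against VEH, -0.13, and CACNA1H at 1.59 and ATP2B3 at -1.57 lie farthest from it.

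The genes closest to these channels were read beside them, after their values had been seen. CACNA1C, the other L-type pore with a sizeable level, rose from 4.94 ± 0.620 to 8.81 ± 1.20 TPM in CJ28 (log2 fold change 0.82, limma adjusted p = 2.7e-05). CACNA1G, another T-type pore, fell from 1.24 ± 0.217 to 0.463 ± 0.122 TPM (log2 fold change -1.27, or -0.61 with a pseudocount of 1, limma adjusted p = 2.4e-04). Of the L-type and T-type pore genes that were tested, CACNA1C and CACNA1H thus rose and CACNA1D and CACNA1G fell, while CACNA1F, CACNA1S and CACNA1I were too low to test. Within each sample, CACNA1H made up 50.0%, 50.2%, 54.6% and 53.6% of the TPM of the 3 T-type genes in VEH, and 87.0%, 88.3%, 92.8% and 90.0% in CJ28. CACNA1D made up 79.4% to 81.1% of the 4 L-type genes in VEH and 58.5% to 62.2% in CJ28. These shares are ratios inside a sample, which scaling leaves as they are, and for both the groups did not overlap (two-sided exact permutation p = 0.0286, the lowest value possible with 2 groups of 4, and 0.0571 after Benjamini-Hochberg adjustment over 24 such tests). The single genes already differed without overlap and in opposite directions, so the shares had to separate. These p-values restate those differences and add no further support. The summed TPM of all 10 voltage-gated calcium pore genes was 28.2 ± 2.71 in VEH and 27.3 ± 2.53 in CJ28, which overlapped (exact permutation test, p = 0.571, adjusted p = 0.596). CACNA1H had 5.14% ± 0.141 of that sum in VEH and 16.7% ± 1.17 in CJ28 (exact permutation test, p = 0.0286, adjusted p = 0.0571), which restates the rise of CACNA1H itself. In MET the share of CACNA1H among T-type genes was 55.9% ± 5.36 and that of CACNA1D among L-type genes 80.5% ± 0.384, both overlapping with VEH.

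**Figure D3:**
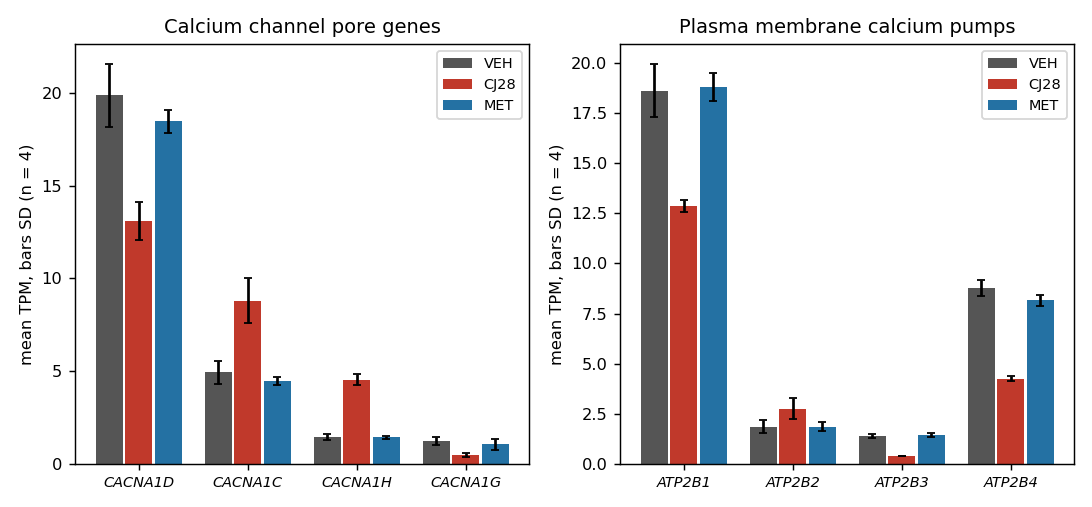
Mean TPM with SD (n = 4) in VEH, CJ28 and MET for the 4 calcium channel pore genes above 1 TPM in VEH and for the 4 plasma membrane calcium pump genes. In CJ28, CACNA1D and CACNA1G are lower and CACNA1C and CACNA1H higher than in VEH, and of the pumps ATP2B2 alone is higher.

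ATP2B3 (ENSG00000067842.17, chromosome X, 153517676 to 153582939, plus strand), a plasma membrane calcium pump, had the lowest log2 fold change of the 8 genes tested, although with a pseudocount of 1 VSNL1 was lower (-1.14). It had 1.24, 1.42, 1.39 and 1.49 TPM in VEH and 0.39, 0.40, 0.39 and 0.42 TPM in CJ28. The CJ28 samples were nearly equal to each other and all under the lowest VEH sample. The log2 fold change was -1.57 (standard error 0.10, limma adjusted p = 6.0e-08), 286 of the 16815 genes tested had a lower one, and with a pseudocount of 1 it was -0.77. Of its relatives, named after their values had been seen, ATP2B1 fell from 18.6 ± 1.32 to 12.9 ± 0.280 TPM (log2 fold change -0.53, or -0.33 over nuclear protein-coding genes) and ATP2B4 from 8.79 ± 0.390 to 4.26 ± 0.135 TPM (log2 fold change -1.03). ATP2B2 rose from 1.86 ± 0.317 to 2.75 ± 0.524 TPM (log2 fold change 0.54), although its groups overlapped, and the largest adjusted p of these 3 in limma was 0.0072. The 4 pump genes together had 30.7 ± 1.68 TPM in VEH and 20.3 ± 0.685 in CJ28, of which ATP2B3 made up 4.52% ± 0.237 and 1.97% ± 0.0547 (exact permutation test, p = 0.0286, adjusted p = 0.0571 for the sum and for the share). The test of the share restates the fall of ATP2B3 itself.

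VSNL1 (ENSG00000163032.12, chromosome 2, 17539126 to 17657018, plus strand) encodes visinin-like 1, a calcium sensor that is abundant in aldosterone-producing adenomas. It had 10.72, 11.55, 9.54 and 12.06 TPM in VEH and 4.79, 3.65, 4.80 and 4.48 TPM in CJ28. Every CJ28 sample was far below the lowest VEH sample. Mean TPM fell by 59.6%, and the log2 fold change was -1.29 (standard error 0.092, limma adjusted p = 1.2e-07). Of 10 other genes of the neuronal calcium sensor family, 4 were tested, and none had an adjusted p under 0.05, with HPCAL1 at 5.34 and 5.44 TPM and NCS1 at 13.99 and 13.9 TPM in VEH and CJ28. With median-of-ratios scaling HPCAL1 (0.17) and NCS1 (0.14) were called higher.

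MET gave no call in these genes. None of the 8 genes tested had an adjusted p under 0.05 in limma, where 0.00595% of all genes did. At an unadjusted p under 0.05 there were 0 of the 8, against 874 of the 16815 genes. AGTR1 had 20.19, 20.39, 19.88 and 20.16 TPM, all below the lowest VEH sample, and it was the 1 gene of the 8 without overlap. Of all genes 2.81% had no overlap in this comparison, 2.03% with lower and 0.779% with higher values in MET. Its log2 fold change of -0.079 had a 95% interval from -0.16 to 0.0032 (limma, unadjusted p = 0.058, adjusted p = 0.933), while the exact permutation test of TPM gave p = 0.0286. MET samples had 43.49 to 48.21 TPM of KCNK3, 18.16 to 19.92 of KCNJ5, 17.69 to 19.06 of CACNA1D and 10.06 to 11.14 of VSNL1. They had 1.36 to 1.49 TPM of CACNA1H, 1.29 to 1.51 of ATP2B3, 2.43 to 3.10 of CLCN2 and 0.11 to 0.29 of KCNK9, each overlapping with VEH. The 95% intervals of the log2 fold change reached from -0.20 to 0.16 for CACNA1H, from -0.18 to 0.27 for ATP2B3 and from -0.44 to 0.24 for CLCN2, the widest of the 8, so small changes of these genes were not detectable.

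The compounds were also compared with each other at the same dose and time. By limma, CJ28 and MET differed in 7 of the 8 genes, where 55.5% of all genes did, with 6 lower (34.6% of all genes) and 1 higher (20.9%) in CJ28. The share of lower genes among all calls was 62.3%, and it moved to 47.7% with median-of-ratios scaling and 39.4% over nuclear protein-coding genes. The same 7 genes had groups without overlap, as did 50.2% of all genes, 31.3% lower and 18.9% higher in CJ28. The log2 fold change of CJ28 against MET was 1.61 for CACNA1H, -1.61 for ATP2B3, -1.25 for VSNL1, -0.69 for KCNK3, -0.63 for AGTR1, -0.50 for CACNA1D and -0.31 for KCNJ5. KCNJ5 was -0.19 with median-of-ratios scaling and -0.12 over nuclear protein-coding genes (limma adjusted p = 0.0365), CACNA1D was -0.31 over the latter, and ATP2B3 was -0.79 with a pseudocount of 1, all still called. For CLCN2 it was -0.017 with a 95% interval from -0.36 to 0.32. That of CACNA1H ranged from 1.19 to 1.85 over the scalings, pseudocounts and filters tried. KCNK9 in CJ28, at 0.02 to 0.09 TPM, lay below all MET samples, the lowest of which had 0.11 TPM (exact permutation test, p = 0.0286). Without the filter on low values its log2 fold change against MET was -0.86 (limma adjusted p = 0.103). Over nuclear protein-coding genes, that of KCNK9 was -1.24 (limma adjusted p = 0.0362). The comparisons with VEH and with MET share the CJ28 samples and are not independent of each other.

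The wider pathway was read from 7 lists with 139 genes, of which 89 were tested. In CJ28 against VEH 54 of these (60.7%) had an adjusted p under 0.05, near the 57% of all genes, with 13 higher and 41 lower. With median-of-ratios scaling 20 were higher and 33 lower, and over nuclear protein-coding genes 26 were higher and 36 lower of 103 tested. For MET against VEH 0 of the 89 were called by limma.

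Of the angiotensin system, 4 of 11 genes were tested and 3 fell, where 37.1% of all genes tested did. AGTRAP, which encodes a protein that binds the receptor, was the other gene tested, with a log2 fold change of 0.089 (limma adjusted p = 0.240), and it was called higher with median-of-ratios scaling (0.24) and over nuclear protein-coding genes (0.29). AGT, ACE and AGTR2 were at or below 0.04 TPM in every sample. MME, a peptidase that cleaves angiotensin peptides, fell from 201 ± 4.84 to 140 ± 4.66 TPM (log2 fold change -0.52, or -0.32 over nuclear protein-coding genes). LNPEP, an aminopeptidase that binds angiotensin IV, had a log2 fold change of -0.41, or -0.21 over nuclear protein-coding genes (largest limma adjusted p of MME and LNPEP 6.2e-05). ATP6AP2, an accessory subunit of the vacuolar proton pump, had one of -0.21 (limma adjusted p = 0.0027), and its call was lost with median-of-ratios scaling (-0.060, limma adjusted p = 0.262) and over nuclear protein-coding genes (-0.0073, limma adjusted p = 0.903).

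Between the receptor and the calcium-dependent kinases, 25 of 30 genes were tested, of which 11 fell and 4 rose in CJ28, or 7 and 5 with median-of-ratios scaling and 7 and 7 of 27 over nuclear protein-coding genes. In the main fit 60% of the 25 were called, near the 57% of all genes tested (37.1% lower, 19.9% higher). ITPR2, a channel that releases calcium from stores, fell from 70.7 ± 4.53 to 35.1 ± 2.6 TPM (log2 fold change -1.01). CALM3 and CALM2, which encode calmodulin, fell from 251 ± 9.0 to 112 ± 2.59 and from 192 ± 2.71 to 89.8 ± 4.85 TPM (log2 fold changes -1.16 and -1.09). CAMK2D, a calmodulin-dependent kinase, rose from 5.58 ± 0.571 to 15.1 ± 1.19 TPM (log2 fold change 1.42). The largest adjusted p of these 4 genes in limma was 1.3e-08.

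Among other calcium channel subunits and clearance genes, 10 fell and 4 rose of 21 tested, and the split was the same with median-of-ratios scaling. The called share was 66.7%, against 57% of all genes tested (37.1% lower, 19.9% higher). CACNA2D1, an auxiliary subunit that brings calcium channels to the membrane, fell from 35.9 ± 3.37 to 20.1 ± 1.83 TPM (log2 fold change -0.83). SLC8B1, the mitochondrial sodium-calcium exchanger, fell from 9.70 ± 1.02 to 4.27 ± 0.364 TPM (log2 fold change -1.16). ATP2A3, a calcium pump of the endoplasmic reticulum, rose from 1.56 ± 0.139 to 4.74 ± 1.12 TPM (log2 fold change 1.52). The largest adjusted p of these 3 genes in limma was 7.4e-05.

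Of other potassium and chloride channels and sodium pump subunits, 20 of 38 were tested, with 9 lower and 4 higher, or 6 and 6 with median-of-ratios scaling and 7 and 9 of 23 over nuclear protein-coding genes. In the main fit 65% of the 20 were called, against 57% of all genes tested (37.1% lower, 19.9% higher). ATP1B1 and ATP1B2, beta subunits of the sodium pump, fell with log2 fold changes of -0.93 and -1.14, the latter -0.65 with a pseudocount of 1. KCNMA1, the large-conductance calcium-activated potassium channel, fell from 7.31 ± 1.29 to 3.53 ± 0.181 TPM (log2 fold change -1.01). The largest adjusted p of these 3 genes in limma was 6.6e-05.

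**Figure D4:**
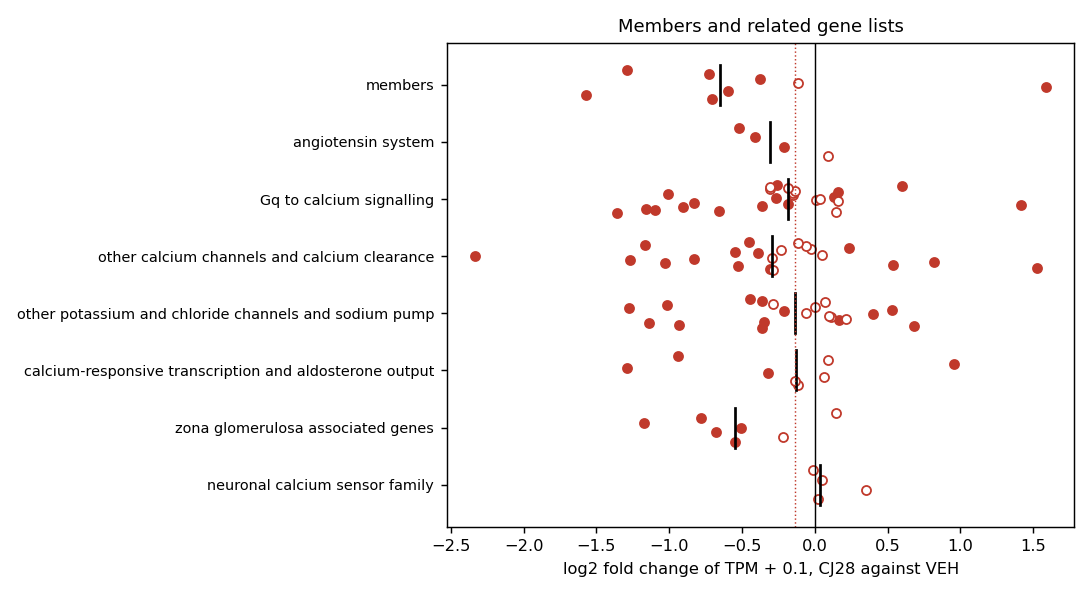
Log2 fold change of TPM + 0.1 in CJ28 against VEH for each tested gene of the 9 genes described (members) and of the 7 pathway lists. Filled points had an adjusted p under 0.05, black bars are list medians (-0.65 for the members, -0.55 for zona glomerulosa associated genes), and the dotted line is the median of all genes, -0.13.

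At the end of the pathway, CYP11B2 (aldosterone synthase) and CYP11B1 (11β-hydroxylase), near-identical genes between which reads can be split, were listed at or below 0.03 and 0.05 TPM in every sample and were not tested. How reads that match both genes were handled is not given in the sources used here, and its part in these low values was not tested. Of the transcription factors and output genes 8 of 12 were tested, with 3 lower and 1 higher. That is 50% called, where 57% of all genes tested were, 37.1% lower and 19.9% higher. NR4A1, a calcium-induced nuclear receptor, rose from 22.2 ± 1.44 to 43.2 ± 5.30 TPM (log2 fold change 0.95), whereas its relative NR4A3 fell from 9.38 ± 0.873 to 4.83 ± 0.288 TPM (log2 fold change -0.94). NR2F2 (COUP-TFII) had a log2 fold change of -1.29 and CREM of -0.32, the latter -0.12 over nuclear protein-coding genes. Of 7 genes associated with the zona glomerulosa 5 fell, where 37.1% of all genes did. The 5 included LGR5 (log2 fold change -1.18, or -0.75 with a pseudocount of 1), NEFM (-0.78), DAB2 (-0.68) and CADM1 (-0.55, or -0.35 over nuclear protein-coding genes). PCP4 was not called in the main fit (log2 fold change 0.15, limma adjusted p = 0.236), and under both scalings it was called higher. The largest adjusted p in limma of the 8 genes named here that were called in the main fit was 0.0027.

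Across the 12 samples, the genes whose log2(TPM + 0.1) was most like that of KCNK3 were FSCN1 (Pearson's r = 0.998) and H2AC14 (0.996). For AGTR1 they were NCAPD3 (0.997) and TOR1B (0.996), and for KCNJ5 they were VIPR1 (0.981) and DOCK1 (0.977). These values only describe the 12 samples, of which the 4 CJ28 samples lie apart from the others for KCNK3, AGTR1 and KCNJ5.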

How the data were processed

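Total RNA of 12 NCI-H295R cultures (VEH, CJ28 and MET, n = 4) was sequenced after ribosomal RNA removal. Per the labels, reads were trimmed with Cutadapt 2.8, aligned to GRCh38 with STAR 2.7.10b and quantified with RSEM 1.3.3; the annotation release and the strand setting are not given in the sources used here. The table the authors deposited holds TPM with 2 decimals for 60662 genes, without read counts. Read totals per library are stated by the study and were not used here, so no counting error was computed. Because TPM is a share, a change in abundant transcripts shifts all other genes.

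Values were transformed to log2(TPM + 0.1), which understates changes of low genes, and fitted with limma 3.58.1 (R 4.3.3; empirical Bayes with a mean trend) over all 12 samples, for the 16815 genes with 0.5 TPM or more in 4 or more samples. P-values were adjusted by the Benjamini-Hochberg method over all genes tested, with a threshold of 0.05. Single values were compared by exact two-sided permutation tests (70 splits). The fit was tested on simulated data. Scalings, pseudocounts, filters and left-out samples were tried as alternatives. Figures were drawn with matplotlib 3.10.9. Sequences are from RefSeq.

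The 9 genes and the pathway lists were chosen with earlier results of these data known. Named pathway genes were up to 4 per list with the largest called change and a mean TPM of at least 1. Some items are not reported here. Other genes were named after their values were seen. Replicates are the 4 biological replicates the series states. The limma p-values set a group difference against the spread between replicates, pooled over all groups and drawn toward the trend of all genes. Permutation p-values depend only on how the replicates' values divide between the groups.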

Additional observations from a re-analysis of the deposited data

Results flagged for a closer look

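CLCN2 in CJ28 replicate 4 had 3.08 TPM, while the other 3 CJ28 samples had 2.43 to 2.54 TPM, and its gap to the nearest of them was large for the range of the group. Such gaps were looked for in 27 groups of 4 samples (9 genes in 3 treatments), and chance alone marks about 1 in 20. CLCN2 was not called in any comparison.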

How the results depend on the processing

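In CJ28 against VEH, 7 of the 8 genes were called in every alternative run, and 8 of 9 over nuclear protein-coding genes, where KCNK9 was also called; leaving out each of the 12 samples in turn gave 7 to 7 calls (also for CJ28 against MET, and 0 to 0 for MET against VEH). All-gene calls then ranged from 8945 to 9519 (CJ28 against VEH), 8755 to 9362 (CJ28 against MET) and 1 to 2 (MET against VEH, 2 without VEH replicate 4 or MET replicate 4), and pathway calls from 50 to 55. For MET against VEH the count of 1 was 0 with a pseudocount of 1, 0 with one of 0.01, 0 with a mean TPM of at least 1, 5 with no filter and 2 over nuclear protein-coding genes. Some log2 fold changes turned in sign, none of them called. CLCN2 was 0.030 (CJ28 against VEH) and 0.10 (CJ28 against MET) with median-of-ratios scaling, 0.083 and 0.17 over nuclear protein-coding genes, and -0.25 to 0.040 and -0.092 to 0.056 with samples left out. For MET against VEH CACNA1H was 0.010 with median-of-ratios scaling and -0.083 to 0.031 with samples left out, where ATP2B3 was -0.0073 to 0.086, CLCN2 -0.24 to 0.056 and VSNL1 -0.10 to 0.0098. The cause was not tested. Deviations from the group means were not shared by samples of equal replicate number (correlation 0.0040 to 0.039 for CJ28 and VEH, -0.063 to 0.021 for MET and VEH, -0.12 to -0.0077 for CJ28 and MET; 2, 1 and 0 of 8 samples correlated best with their own number). With the replicate number as a block, 9546, 1 and 9361 genes were called for CJ28 against VEH, MET against VEH and CJ28 against MET, and 7, 0 and 7 of the 8 genes. With 1 sample left out the permutation test cannot go below 0.0571. Low TPM values, given to 2 decimals and without counts, limit KCNK9 most.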
